A study of Oryza sativa with 4 samples.

Results

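The genes that flank LAZY1 on rice chromosome 11 were compared between the mutant line bta1-1 and the wild type line SN9816. LAZY1, known by the published identifier OS11G0490600, is the gene that bta1-1 is known to alter, a pairing that the files themselves do not give. The flanking genes were taken by identifier, as the chromosome 11 loci from OS11G0455000 to OS11G0520000, without LAZY1 itself and without OS11G0484300, and with at least 40 reads summed over the 4 libraries. That gave 110 genes, of 206 loci in the window and of 91960 features in the whole count table. The 94 loci that fell short comprised 51 with 0 reads and 43 with fewer than 40, and none of them had more than 14 reads in any library.

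Rice seedlings (Oryza sativa, japonica) were harvested at 7 days after growth under 14 h of light and 10 h of dark, and their RNA was sequenced. There were 2 libraries of the mutant strain bta1-1 and 2 of the wild type strain SN9816, described as biological replicates. The sources used here do not give the parent line of bta1-1, the kind of mutation or the part of the seedling sampled, so an effect of the mutation and any other difference between the lines cannot be told apart. Nothing in the labels says that the replicates came from separate trays or days, so p-values measure the spread between these libraries, which may be technical in part.

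LAZY1 promotes the bending of shoots against gravity, and rice plants that lack its function spread their tillers outward. Genes close together on a chromosome are inherited together, so lines that differ at one gene can also differ in a segment around it, where sequence differences may alter the transcription of neighbours or the share of their reads that align. Rice locus numbers carry the chromosome and follow the order of genes along it, and were used here as an order, not as a distance in bases. The files and the reference table pair none of the flanking loci with a name, so they are given by identifier and without a role.

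The libraries held 17332067 and 17365812 counted reads in bta1-1, and 20334851 and 15093108 in wild type. LAZY1 had 70 and 89 reads in the bta1-1 libraries, against 767 and 461 in the wild type libraries. Its log2 fold change was -2.93 (SE 0.26, adjusted p = 0.000445), from edgeR's quasi-likelihood test with Benjamini-Hochberg adjustment over 24396 genes, which is the test behind every adjusted p given here unless another tool is named. A gene was called at an adjusted p under 0.05. Loci listed as leaf markers (6) summed to 15430 and 6367 CPM (reads scaled to library size with TMM) in bta1-1 and to 10010 and 16210 CPM in wild type, and 0 of 6 were called. Loci listed as root markers (6, of which 5 were tested) summed to 989.5 and 1015 CPM in bta1-1 and to 1441 and 1204 CPM in wild type, and 0 were called. Their part in the values below was not tested. In bulk RNA, fewer cells that express a gene and less RNA per cell cannot be told apart.

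As a set, the flanking genes were called no more often than other genes, on a count of only 3. Of 109 flanking genes tested, 3 were lower in bta1-1, none was higher and 106 were not called. The called share was 2.75%, against 4.36% of the other chromosome 11 genes with at least 40 reads (51 of 1170) and against 5.41% of all genes tested (1319 of 24396). By direction, 2.77% of all genes tested were called higher and 2.64% lower, beside 0 and 2.75% of the flanking genes. At an unadjusted p under 0.05, edgeR gave 4 flanking genes higher and 9 lower, together 11.9% of them, against 17.4% of the other chromosome 11 genes and 17.8% of all genes tested. DESeq2 called 1 flanking gene higher and 4 lower (4.55%), against 6.21% of the other chromosome 11 genes and 7.03% of all genes. No test was made between these shares, because genes of one chromosome segment are not independent replicates. OS11G0484300, inside the window but left out by the rule, had 264 and 628 reads in bta1-1, against 187 and 54 in wild type. It was not called either (log2 fold change 1.95, adjusted p = 0.054 by edgeR).

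The differences were also of ordinary size. The median absolute log2 fold change was 0.36 among flanking genes, 0.34 among the other chromosome 11 genes and 0.31 among all features with at least 40 reads. A fitted difference of 2-fold or more, in either direction and whether called or not, was found for 11 flanking genes (10.1%), against 14.1% of the other chromosome 11 genes and 13.9% of all genes tested. The largest absolute log2 fold change was 2.46 among the 109 flanking genes and 9.0 among the 1170 others of chromosome 11. A maximum tends to rise with the number of genes. In stretches of chromosome 11 as wide as the window in locus numbers, it ran from 2.28 to 9.0. Over the same flanking genes, the median absolute log2 ratio was 0.35 between the line means, 0.38 between the 2 bta1-1 libraries and 0.37 between the 2 wild type libraries. In the same order these ratios were 0.31, 0.34 and 0.32 over all genes tested. A mean of 2 libraries varies less than a single one, so the first ratio and the others cannot be set against each other directly.

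**Figure D1:**
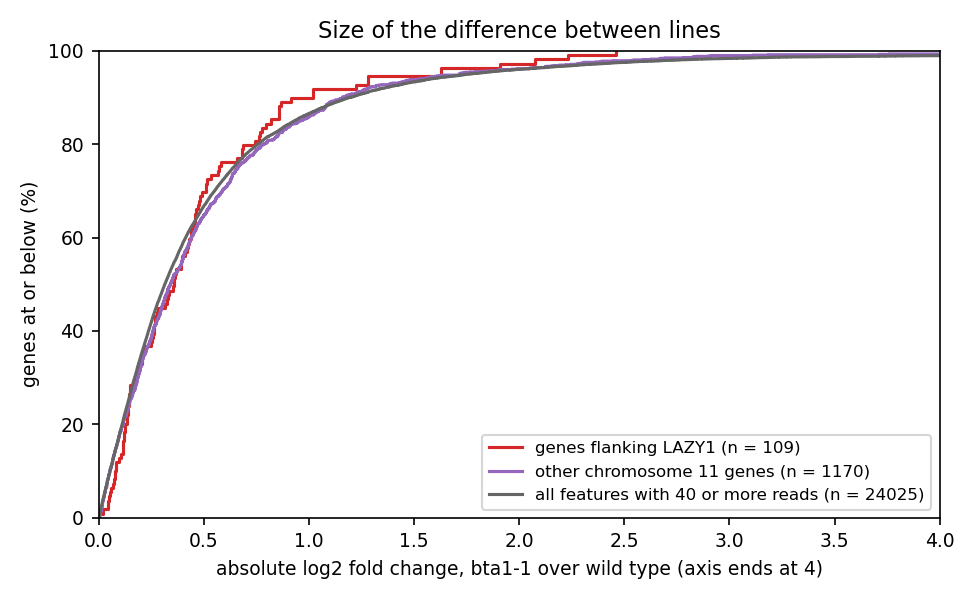
Cumulative share of genes (vertical axis, %) by absolute log2 fold change of bta1-1 over wild type (horizontal axis), for the 109 flanking genes, the 1170 other chromosome 11 genes and all 24025 tested features with at least 40 reads. The 3 curves run close together, with medians of 0.36, 0.34 and 0.31.

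Libraries of the 2 lines separated about as often as elsewhere. Both bta1-1 libraries were above or below both wild type libraries in 50 of 109 flanking genes (23 higher and 27 lower), which is 45.9%, against 48.7% on the rest of chromosome 11 and 46.9% of all genes tested. No flanking gene was read in one line only, defined as 20 reads or more in both libraries of one line with 3 or fewer in both of the other. That pattern occurred in 4 of 1176 other chromosome 11 genes (0.34%) and in 170 of 24147 features with at least 40 reads (0.704%). At shares this low, a count of 0 among 110 flanking genes does not set them apart.

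The 3 called genes all lay on the side of LAZY1 with the higher locus numbers, and all were lower in bta1-1. OS11G0498600 had 229 and 180 reads in bta1-1, against 1252 and 715 in wild type. It averaged 11.7 ± 2.81 CPM in bta1-1 and 55.0 ± 7.26 CPM in wild type (SD, n = 2 each), which gave a fitted log2 difference of -2.23 (SE 0.26, adjusted p = 0.00248). Both bta1-1 libraries were low and both wild type libraries high, with no overlap. It was the flanking gene with the smallest p.

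OS11G0502700 had 302 and 396 reads in bta1-1, against 1943 and 785 in wild type. Its mean was 19.8 ± 2.36 CPM in bta1-1 and 74.1 ± 27.3 CPM in wild type (SD, n = 2 each). The wild type libraries were uneven, at 93.4 and 54.8 CPM, yet each was above both bta1-1 libraries, at 18.1 and 21.4 CPM. Its log2 fold change stood at -1.91 (SE 0.30, adjusted p = 0.0109).

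OS11G0513900 had 40 and 39 reads in bta1-1, against 138 and 105 in wild type. It averaged 2.25 ± 0.202 CPM in bta1-1 and 6.98 ± 0.492 CPM in wild type (SD, n = 2 each), a fitted log2 difference of -1.63 (SE 0.36, adjusted p = 0.0352). The libraries of the 2 lines did not overlap. By limma on the same genes its call was lost, with an adjusted p of 0.0717 on log2(FPKM + 1) and 0.087 on log2(FPKM + 0.1). The log2 fold change on log2(FPKM + 1) was -0.82. Leaving out a library leaves a single one in its line, so only fold changes are given for those fits. Without each library in turn, the log2 fold change of OS11G0513900 ran from -1.72 to -1.51. That of OS11G0498600 ran from -2.5 to -1.97, and that of OS11G0502700 from -2.24 to -1.47.

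In level per length 2 of the 3 genes were alike and the other was far lower. OS11G0498600 averaged 14.3 FPKM (fragments scaled to gene length and library size, as deposited) in bta1-1 and 65.9 FPKM in wild type. OS11G0502700 averaged 20.8 FPKM in bta1-1 and 76.2 FPKM in wild type. OS11G0513900 stood at 0.613 FPKM in bta1-1 and 1.85 FPKM in wild type, and its counted length was 3712 bases, against 827 bases for OS11G0498600 and 968 bases for OS11G0502700.

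**Figure D2:**
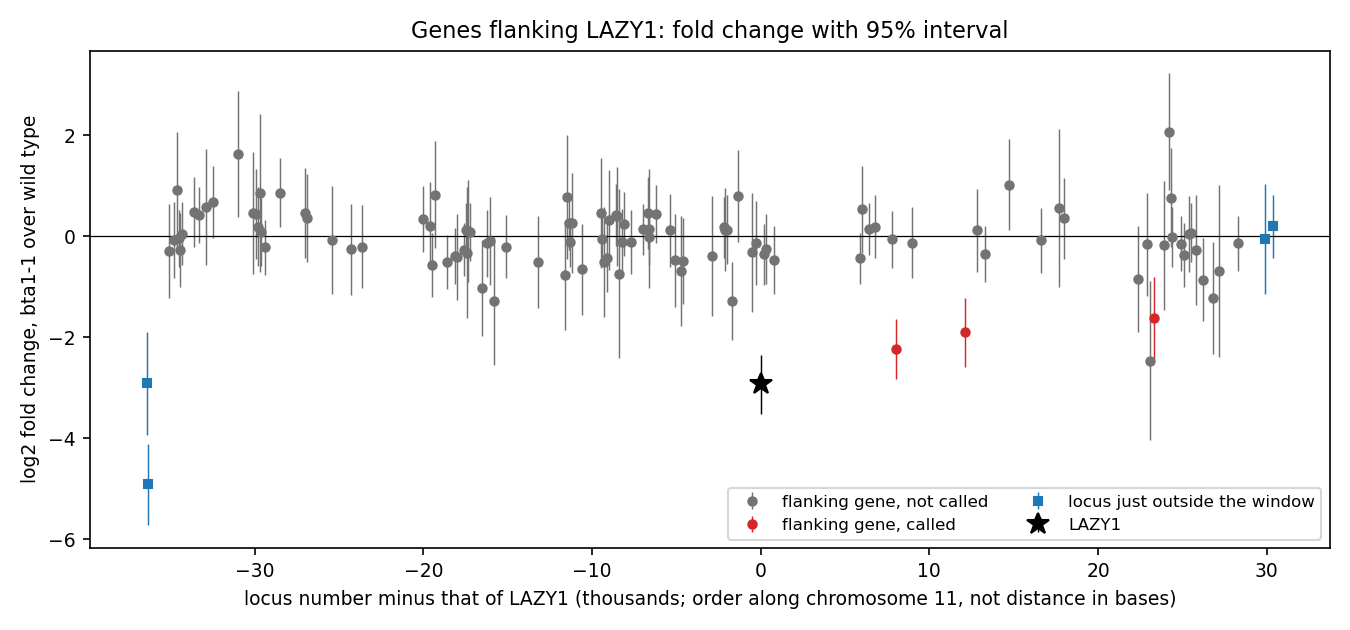
Log2 fold change of bta1-1 over wild type (vertical axis) with its 95% interval for the 109 tested flanking genes, LAZY1 and the 4 nearest loci outside the window, against locus number relative to LAZY1 (horizontal axis). LAZY1 at -2.93 stands below its nearest neighbours, and the 3 called genes lie to its right.

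None of the flanking genes next to LAZY1 was as much lower in bta1-1 as LAZY1 itself. Of the 13 flanking genes within 5000 locus numbers of it, none was called by edgeR, 1 had an unadjusted p under 0.05, DESeq2 called 1 and limma on the deposited FPKM called 0. Their 95% intervals all lay above the log2 fold change of LAZY1. On the lower-numbered side, OS11G0490300 had 111 and 123 reads in bta1-1, against 110 and 136 in wild type, with a log2 fold change of -0.14 (95% interval -0.97 to 0.69). The libraries of the 2 lines overlapped. On the other side, OS11G0490800 had 165 and 169 reads in bta1-1, against 260 and 171 in wild type, with a log2 fold change of -0.36 (95% interval -0.97 to 0.25). After scaling, its bta1-1 libraries at 9.89 and 9.15 CPM were both below its wild type libraries at 12.5 and 11.9 CPM, but the difference did not pass the test (adjusted p = 0.582).

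Next in number, OS11G0490900 had 110 and 131 reads in bta1-1, against 185 and 107 in wild type (log2 fold change -0.26). OS11G0491400 had 163 and 184 reads in bta1-1, against 342 and 156 in wild type (log2 fold change -0.47). OS11G0490100 had 15 and 24 reads in bta1-1, against 36 and 14 in wild type (log2 fold change -0.31). None of these passed the test, and each interval reached above 0. Farther out, a pair of genes had values above 0, also uncalled: OS11G0489250, at 65 and 88 reads in bta1-1 against 61 and 29 in wild type, had a log2 fold change of 0.79 (adjusted p = 0.355), and OS11G0496600, at 60 and 87 reads in bta1-1 against 57 and 43 in wild type, had 0.54 (adjusted p = 0.562).

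OS11G0496500, the highest in FPKM of the 5 nearest flanking genes on each side, had 960 and 1076 reads in bta1-1, against 1594 and 1151 in wild type. Its libraries were even within each line, at 57.5 and 58.3 CPM in bta1-1 and 76.6 and 80.3 CPM in wild type, and its log2 fold change was -0.44 (95% interval -0.94 to 0.07, adjusted p = 0.361). OS11G0488600 had 314 and 218 reads in bta1-1, against 262 and 220 in wild type, and overlapped between the lines (log2 fold change 0.13). OS11G0488900 was the near neighbour with the smallest p, at 71 and 56 reads in bta1-1 against 178 and 131 in wild type. Its log2 fold change of -1.28 (SE 0.34) had an adjusted p of 0.0704 by edgeR, against 0.0397 by DESeq2 and 0.0116 by edgeR without a filter on low counts.

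**Figure D3:**
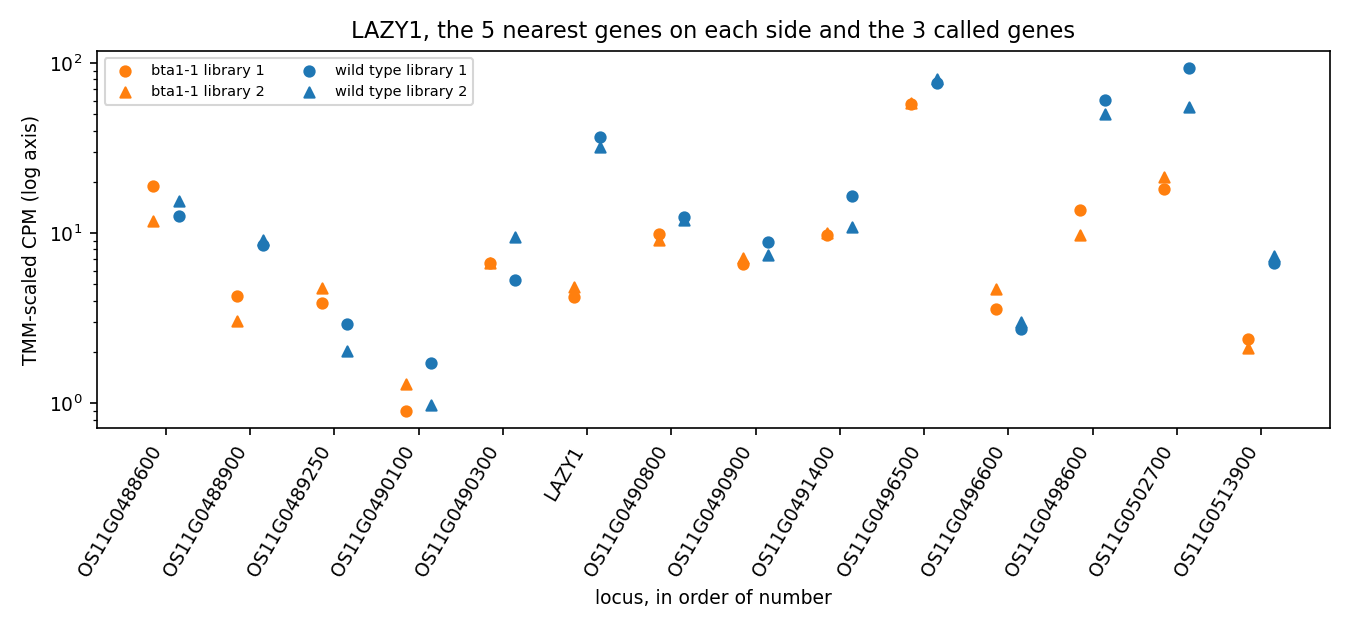
TMM-scaled CPM (vertical axis, log scale) in each library for LAZY1, the 5 nearest flanking genes on each side of it and the 3 called genes, in order of locus number. Points stand for single libraries, bta1-1 to the left of wild type. LAZY1, OS11G0498600, OS11G0502700 and OS11G0513900 show the widest gaps between the lines, while OS11G0488600, OS11G0490100 and OS11G0490300 overlap.

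As a group, the 13 genes within 5000 locus numbers had a median log2 fold change of -0.31, and 9 of the 13 values were below 0. The median stood at -0.14 without wild type replicate 1 and between -0.24 and -0.39 without each other library. By limma it was -0.19 on log2(FPKM + 1) and -0.21 on log2(FPKM + 0.1). Over all features with at least 40 reads the median was -0.01. Small groups elsewhere in the window had medians as far from 0. In steps of 5000 locus numbers the median ran from -0.35 (3 genes) to 0.46 (4 genes), and was 0.43 in the lowest-numbered step (11 genes). Of the same 13 genes, 7 did not overlap between the lines (53.8%, against 46.9% of all genes tested), 6 of them lower in bta1-1 and 1 higher. All genes tested that did not overlap split into 5654 lower and 5785 higher. A further 19 loci within 5000 locus numbers of LAZY1 had fewer than 40 reads in total, of which 8 had 0 reads and the most had 25.

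Among genes 5000 to 15000 locus numbers away, 2 of 36 were called (5.56%), near the 5.41% of all genes tested, and among those farther out 1 of 60 (1.67%). The median absolute log2 fold change was 0.36, 0.37 and 0.35 in the near, middle and far genes. By side, 0 of 75 tested genes to the left (lower numbers) were called by edgeR, where 5 had an unadjusted p under 0.05 and DESeq2 called 1. To the right, 3 of 34 were called (8.82%, against 5.41% of all genes tested and 4.36% of other chromosome 11 genes), 8 had an unadjusted p under 0.05 (23.5%, against 17.8% of all genes tested), and DESeq2 called 4. The median log2 fold change was 0.05 on the left and -0.16 on the right. The difference between the sides was not tested.

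One step near the right end of the window held the widest spread of values. In the step from OS11G0510000 up to OS11G0515000, the median absolute log2 fold change of 7 genes was 0.86, against 0.19 to 0.46 in the other 12 steps of 5000. These 7 genes were thinly read, with a median of 134 reads over the 4 libraries, against 680 for all flanking genes. They moved in both directions. OS11G0513700 had 2 and 5 reads in bta1-1, against 17 and 21 in wild type (log2 fold change -2.46, SE 0.69, adjusted p = 0.0843). OS11G0514800, singled out after its values were seen, had 37 and 72 reads in bta1-1, against 13 and 12 in wild type (log2 fold change 2.07, SE 0.51, adjusted p = 0.0532 by edgeR). Neither passed the test, though the libraries of the 2 lines overlapped in neither gene. Both passed by edgeR without a filter on low counts, and OS11G0514800 also by DESeq2.

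What the uncalled genes allow can be read from their intervals. For 43 of 109 flanking genes (39.4%) the 95% interval lay within 2-fold in either direction, against 36.8% on the rest of chromosome 11 and 41.5% of all genes tested. For the remaining genes the interval reached past 2-fold in at least one direction. The fitted log2 fold change of LAZY1, -2.93, lay outside the interval of 108 of the 109. OS11G0513700 was the exception with an interval of -4.04 to -0.89. LAZY1 has an interval of its own, from -3.52 to -2.35, which those of some other flanking genes reached. That of OS11G0498600, for example, went down to -2.83.

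Flanking genes ranged widely in level. Their mean over the 4 libraries ran from 0.193 to 786 FPKM with a median of 7.21, and 9 were above 100 FPKM while 14 were below 1 FPKM. The 3 highest were all at the low-numbered end. OS11G0455500 averaged 721 FPKM in bta1-1 and 851 FPKM in wild type, on 12893 and 24387 reads in bta1-1 and 32572 and 14083 in wild type. Within each line its 2 libraries differed more than the lines did (log2 fold change -0.28, adjusted p = 0.815). OS11G0455800 followed, at 446 FPKM in bta1-1 and 457 FPKM in wild type (log2 fold change -0.08, 95% interval -0.83 to 0.67).

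OS11G0456300 was the steadiest of these abundant genes, at 5389 and 6184 reads in bta1-1 and 6182 and 4867 in wild type (log2 fold change 0.05, 95% interval -0.58 to 0.67). At the opposite extreme of depth, OS11G0462500 had 5 and 9 reads in bta1-1, against 21 and 7 in wild type. It was the 1 flanking gene too low in reads to be tested. Of the loci left out for low reads, OS11G0470500 came nearest with 28 reads in total and OS11G0501000 had 27.

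Both loci just outside the low-numbered edge of the window were lower in bta1-1. The first loci inside, OS11G0455500 and OS11G0455800, were not called. OS11G0454300 had 11 and 12 reads in bta1-1, against 372 and 317 in wild type, with a fitted log2 difference of -4.92 (SE 0.35, adjusted p = 0.000179). OS11G0454200 had 10 and 11 reads in bta1-1, against 102 and 60 in wild type, with a fitted log2 difference of -2.92 (SE 0.45, adjusted p = 0.00893). In the stretch of chromosome 11 next to the window on that side, equally wide in locus numbers, 4 of 67 tested genes were called. That share, 5.97%, was near the 5.41% of all genes tested. Whether OS11G0454200 and OS11G0454300 mark a boundary of differences between the lines was not tested. At the high-numbered edge, OS11G0518900 and OS11G0517800 inside and OS11G0520500 and OS11G0521000 outside had log2 fold changes of -0.14, -0.69, -0.06 and 0.20, and none was called.

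The choice of window therefore bears on the share. With the window widened to OS11G0440000 to OS11G0535000, 8 of 168 genes were called (4.76%), 2 higher and 6 lower, against 4.14% of the chromosome 11 genes outside it. Narrowed to OS11G0470000 to OS11G0510000, 2 of 69 were called (2.9%), against 4.3% outside it. The share of flanking genes called was thus below that of other chromosome 11 genes in the window as defined and in the narrower one, and above it in the wider one. The 8 called genes of the wider window included OS11G0454200 and OS11G0454300, so its share rests in part on those neighbouring loci.

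Along chromosome 11, consecutive bins as wide as the window held called shares from 2.53% to 6.02%. The window's 2.75% was the second lowest of 9 bins, above its right-hand neighbour, with 4 of 158 genes called. The bin to its left, with 4 of 67, stood at 5.97%. On whole chromosomes, the called share of genes with at least 40 reads ran from 3.66% on chromosome 7 to 10.1% on chromosome 10, and chromosome 11 stood at 4.29%. None of the 12 chromosomes was below the share of the flanking genes. That share rests on 3 called of 109 tested genes, however, while each chromosome had at least 1213 tested. A share of so few genes moves much more with a single call.

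**Figure D4:**
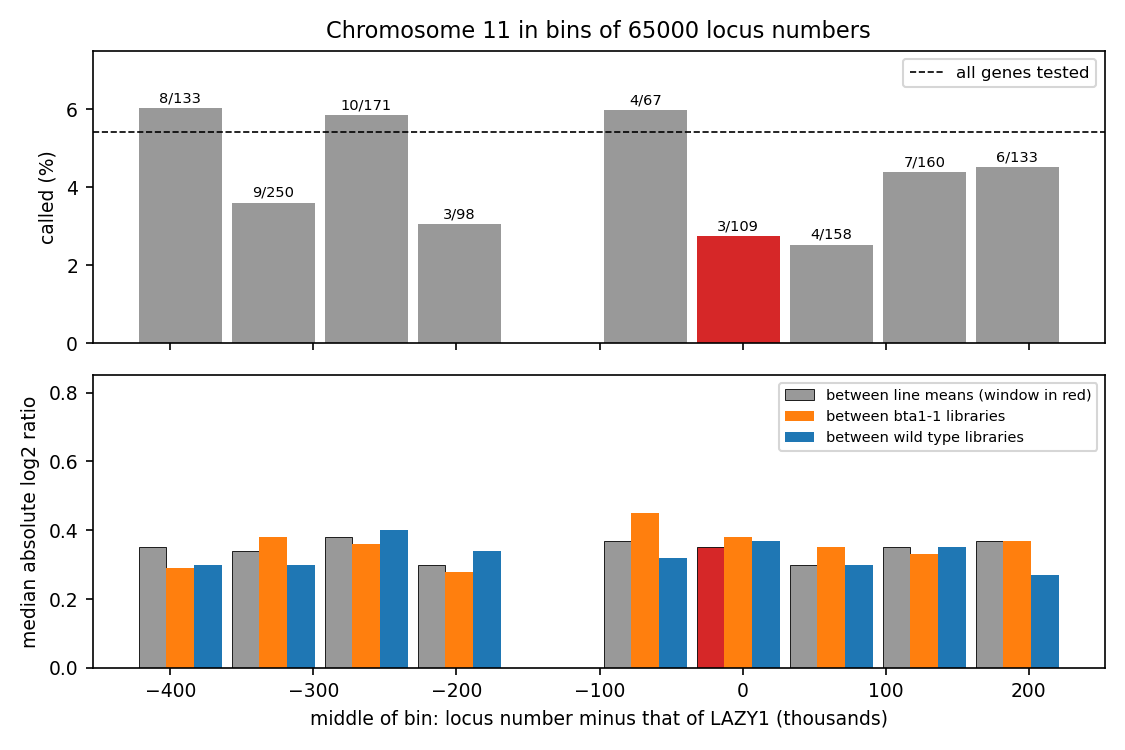
Chromosome 11 in bins of 65000 locus numbers, placed by their middle relative to LAZY1 (horizontal axis), with genes of at least 40 reads. Upper panel, genes called (%), with called over tested above each bar, the window in red and the share of all genes tested (5.41%) dashed. Lower panel, median absolute log2 ratio between the line means, between the 2 bta1-1 libraries and between the 2 wild type libraries, at 0.35, 0.38 and 0.37 in the window. A bin without a bar held no gene with 40 reads.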

How the data were processed

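The authors deposited raw read counts, in whole numbers and not normalized. FPKM values of the same genes and libraries were deposited by the authors in a second table, scaled for gene length and library size. The lengths implied by the counts over FPKM were whole numbers (tolerance 0.01 base) for 100% of values. Per the submitters' processing notes, TopHat2 2.0.12, Bowtie2 2.2.3 and HTSeq 0.6.1 were used with the build IRGSP-1.0, in roles not stated. No source used here names the annotation release or strand setting. How reads of overlapping, antisense or near-identical genes were counted is therefore not known, and the counts of such genes may be affected.

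Samples were grouped by their labels. The line was the 1 term of a robust edgeR 4.0.16 quasi-likelihood fit (R 4.3.3), scaled by TMM, two-sided, with Benjamini-Hochberg adjustment over the 24396 genes that filterByExpr kept (min.count 10, min.total.count 15). The fit was first tested on simulated data. Standard errors are the log2 fold change over the root of F, and 95% intervals use the fit's degrees of freedom. Log2 ratios between replicates used CPM + 0.1. Alternatives were DESeq2 1.42.0, limma 3.58.1 on log2(FPKM + 1) and log2(FPKM + 0.1), other filters, thresholds and windows, each library left out, and the replicate number as a block. With a library left out, the spread comes from the pair of the other line alone, so calls in such a fit are a weak check. Replicates of a line were not copies, with a chi-square per degree of freedom of 49.4 in bta1-1 and 35.7 in wild type. Marker names rest on published locus identifiers, which the RefSeq gene table (ASM3414082v1) does not hold.

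The genes, lists and tests were chosen with earlier results of these data known. Genes were named by rule: called members (up to 12 per direction), the 5 nearest LAZY1 on each side, the 3 highest in FPKM, the 2 at each edge inside and outside, and the 2 on each side of the limit of 40 reads.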

Additional observations from a re-analysis of the deposited data

How the results depend on the processing

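In all 15 other settings for the test the share of flanking genes called was no higher than that of all genes tested or of other chromosome 11 genes. Flanking genes higher in bta1-1, 0 as reported, numbered 1 by DESeq2, 2 without a filter on low counts, and 0 to 2 without each library, the 2 being without bta1-1 replicate 1. Those lower, 3 as reported, numbered 6 without a filter, 0 by limma on log2(FPKM + 1) without a filter, 1 at an adjusted p under 0.01, and 2 to 4 without each library. The wider window gave 2 higher and 6 lower. Other chromosome 11 genes called, 51 as reported, numbered 123 without a filter, 4 by limma without a filter, 14 at an adjusted p under 0.01, and 32 (without bta1-1 replicate 2) to 86 (without bta1-1 replicate 1). All genes called, 1319 as reported, numbered 2904, 169 and 374 in the same 3 settings, and 1005 to 2056 without each library. With the replicate number as a block, 774 genes, 25 on the rest of chromosome 11 and 2 flanking genes were called, and OS11G0513900 had an adjusted p of 0.116. Same-numbered libraries deviated in opposite directions (correlation -0.416 across genes), the numbers are not said to pair samples, and with crossed numbers, added after seeing the data, 3744 genes, 172 on the rest of chromosome 11, and 4 higher and 6 lower flanking genes were called. OS11G0498600 and OS11G0502700 kept their direction in each setting and missed the threshold by limma without a filter (adjusted p = 0.064 and 0.164), and OS11G0502700 also at 0.01. LAZY1 was called in each setting, with an adjusted p of at most 0.0351. With 2 libraries per line, a missed threshold does not show equal levels.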
